A study of Mus musculus with 6 samples.

Results

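The 60 genes described here encode the machinery of mitosis, from the cyclins and kinases that start it to the motors, kinetochore proteins and condensins that move and pack the chromosomes. They were taken as a list of gene symbols put together by function, without a measured threshold but with earlier results of these data known. All 60 had a row among the 47086 gene loci of the expression table. Expression was measured by RNA-seq of total RNA from primary hippocampal cultures of C57BL/6 mice kept for 14 days in vitro. Of 6 libraries, 3 were wild type (WT) and 3 came from mice lacking Fmr1, the gene of the RNA-binding protein FMRP whose loss causes fragile X syndrome; no drug treatment was named for either genotype. The values are FPKM, fragment counts scaled to transcript length and to the mapped total of the library, so that levels can be set side by side between genes per unit length, while the number of reads behind each value is unknown and no counting interval can be given.

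The cultures were made from the hippocampi of newborn Fmr1 knockout (KO) and WT pups. The study's animals were male KO mice and their WT littermates, but neither the litter nor the sex of the pups was given by library, nor whether the 3 libraries of a genotype came from separate cultures, so the p-values measure only the spread between these libraries, which may be technical. The libraries are labelled as hippocampal neurons, and neuronal markers were present, with summed FPKM of 8 excitatory neuron markers between 850 and 955. The summed level of 10 astrocyte markers was higher still, between 1769 and 2083, so the RNA was not of neurons alone. Fmr1 itself was listed at 19.0, 19.5 and 19.7 FPKM in WT and at 23.1, 21.8 and 18.5 FPKM in KO (log2 difference 0.12, limma adjusted p = 0.536). Since FPKM is summed over the whole gene and transcripts from a disrupted allele count too, these values do not check the genotype labels, and WT and KO stand throughout for the libraries so labelled.

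Mitosis is run by waves of protein kinase activity. Cyclin-dependent kinase 1 with cyclins A and B drives entry, the spindle checkpoint holds the cell until every kinetochore is attached to microtubules, and the anaphase-promoting complex (APC/C) then has securin and the cyclins destroyed so that sister chromatids part. Neurons have left the cell cycle for good and are not expected to divide, whereas glia and their precursors can keep dividing in postnatal hippocampal cultures. Most of these genes are transcribed late in the cycle: in resting cells the DREAM complex represses them, and in cycling cells B-Myb with the MuvB core and FOXM1 activates them. MuvB binds a promoter element called the CHR, for cell cycle genes homology region, which has the letters TTTGAA or a close variant and lies near the transcription start, often close to CCAAT boxes bound by NF-Y.

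The promoters are shown first because this element was frequent among the members, although promoters played no part in choosing them. The CHR is known from genes transcribed late in the cycle like these, so its frequency here is a description and no independent finding. RefSeq promoter windows of the GRCm38.p6 assembly, running from 250 bases before to 50 bases after each start, were at hand for 50 of the 60 genes, in 53 windows. TTTGAA, which reads TTCAAA where the site lies on the other strand, was found in 37 of the 53 windows (69.8%), against 17.9% of all 32851 promoter windows. The variant TTCGAA was found in 9.43% against 1.56%. Counted by gene, 37 of the 50 had either form in a window. Either form lay within 50 bases of the start in 67.9% of member windows and in 5.31% of all windows. A CCAAT box (CCAAT or ATTGG) was found in 73.6% against 37.4%, and a CHR form and a CCAAT box stood in the same window in 66.0% against 7.52%. The E2F letters TTTCCCGC or TTTGGCGC, searched on both strands like the others, were found in 3 member windows (5.66%, against 1.56% of all). No motif contains another, and neighbouring matches can overlap by a few bases. Windows that belong to 1 gene overlap, so the 53 are not independent, and a match of letters is a description and not a bound site.

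The following stretches of 30 bases surround the CHR nearest the start of 9 members whose RNA level, described further on, was higher in KO at an unadjusted p below 0.05. The CHR is in capitals, and each stretch is read 5′ to 3′ along the strand of its gene (RefSeq, GRCm38.p6).
Bub1 (chr2:127831828-127831857, minus strand): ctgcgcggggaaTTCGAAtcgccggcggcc
Ccnb2 (chr9:70421533-70421562, minus strand): agcggcgcggtaTTTGAAtcgcggaccggg
Cdc20 (chr4:118437344-118437373, minus strand): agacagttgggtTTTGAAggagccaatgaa
Ect2 (chr3:27153822-27153851, minus strand): cgactggattttTTTGAAtcggaggcggca
Kif23 (chr9:61946780-61946809, minus strand): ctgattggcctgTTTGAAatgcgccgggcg
Ncapg (chr5:45669883-45669912, plus strand): ccgcgatagttgTTTGAAaactctggcgct
Plk1 (chr7:122159453-122159482, plus strand): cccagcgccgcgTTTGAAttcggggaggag
Prc1 (chr7:80294434-80294463, plus strand): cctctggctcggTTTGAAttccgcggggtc
Top2a (chr11:99024195-99024224, minus strand): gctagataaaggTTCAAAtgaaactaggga
In this set 7 sites were TTTGAA, Bub1 carried TTCGAA, and Top2a carried the element in the opposite orientation. Counted from the start, the first base of the CHR lay 31 bases in for Plk1, 15 for Bub1, 5 for Ccnb2 and 3 for Kif23, and it lay at -18 for Cdc20, at -23 for Top2a and at -30 for Ncapg. Ect2 and Prc1 have more than 1 annotated start, and the site lay at 16 or 40 for Ect2 and at -30 or -5 for Prc1.

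How the CHR sits with CCAAT boxes is seen in the 100 bases before the start of Top2a and of Cdc20, with both elements in capitals.
Top2a (chr11:99024190-99024289, minus strand): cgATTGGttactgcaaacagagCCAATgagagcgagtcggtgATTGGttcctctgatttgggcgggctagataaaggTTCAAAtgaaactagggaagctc
Cdc20 (chr4:118437344-118437443, minus strand): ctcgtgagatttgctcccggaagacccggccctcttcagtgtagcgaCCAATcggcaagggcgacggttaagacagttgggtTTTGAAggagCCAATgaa
Within these 100 bases Top2a has 3 CCAAT boxes upstream of its CHR, in both orientations, and Cdc20 has 2, which flank the CHR. Further CHR and CCAAT matches lie farther upstream in the Top2a window. In steps of 25 bases, CHR matches in member windows were most frequent just downstream of the start: 30.2% of member windows had a match beginning at positions 1 to 25, against 1.43% of all windows. From 26 to 50 the shares were 17.0% and 1.06%, and from -25 to -1 they were 13.2% and 1.46%. Among the members with a window, 11 of the 14 whose RNA differed at an unadjusted p below 0.05 and 25 of the 34 others that were tested had a CHR, so the letters were common in both groups. Birc5, Ncaph and Pttg1 were the members of the first group with a window but without the letters.

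**Figure D1:**
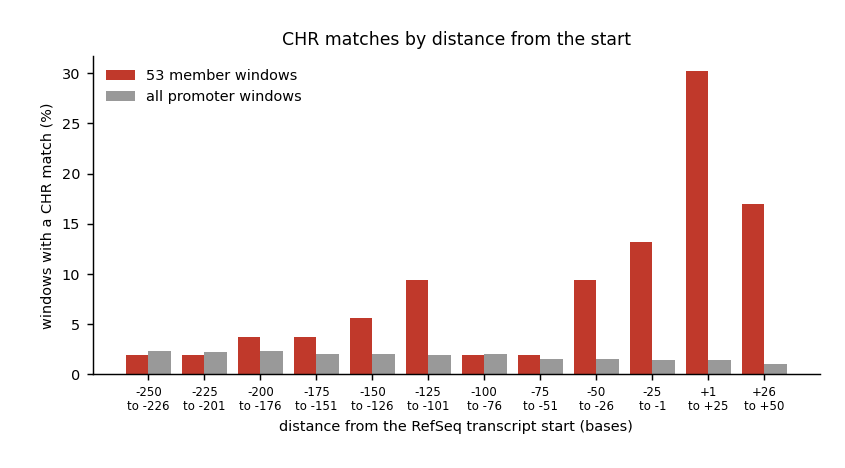
Share of promoter windows with a CHR match (either form, either strand) beginning in each step of 25 bases, for member windows and for all windows, by distance from the transcription start in bases. Member windows peak at 30.2% just after the start, where all windows stand at 1.43%.

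WT and KO were compared for each locus to see which mitotic genes differed with the loss of Fmr1. Nearly all members were slightly higher in KO, and none by an amount that passed a correction over all loci. Of the 58 members tested, 55 (94.8%) had a mean log2 change above 0, against 51.7% of all 13195 loci tested. Among the 55, Mybl2 entered the test through its KO mean alone and so had to have the higher mean FPKM in KO. Changes are of log2(FPKM + 0.1), which understates those of the lowest genes. The members' median change was 0.17, a ratio of 1.13, beside 0.00498 over all loci. In limma's test 15 members (25.9%) were higher at an unadjusted p below 0.05, where 6.99% of all loci were. Only Pttg1 was lower at that threshold, 1.72% of members against 7.77% of all loci. With Benjamini-Hochberg adjustment over all tested loci 0 members passed 0.05, the lowest adjusted p being 0.108 for Ccna2, while 35 loci (0.265%) passed across the whole table. All 3 KO libraries lay above all 3 WT libraries for 18 members (31.0%), Mybl2 among them, against 10.8% of all loci. They lay below for 0 members, against 10.3%. These are counts over genes measured in the same 6 libraries, which are not independent. The list was also chosen with earlier results of these data known, so the counts carry no test of it. In RNA from whole cultures, more dividing cells and more of these RNAs per cell, dividing or not, cannot be told apart.

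Members that were not tested, or only just, are accounted for here. Loci entered the test with a mean of at least 1 FPKM in either genotype. Kif11, the motor that pushes spindle poles apart (chr19:37376403-37421859), and Nek2, a centrosome kinase (chr1:191821281-191833049), were listed at 0 in all 6 libraries, and both have a further locus in the table on a scaffold outside the assembled chromosomes, also at 0. Of the 1685 gene symbols with a locus on a chromosome and another on a scaffold, 65.3% were listed at 0 everywhere, against 38.2% of the 43584 symbols with 1 locus. These zeros therefore cannot be read as absence of the RNA. Mybl2, at 0.956 FPKM over all libraries, was the lowest member tested and the only one to pass through the KO mean alone, with Sgol1 next above it at 1.17 FPKM. Ccnb1, Ccnb2, Aurkb, Kif22, Kif2c and Kif4 have pseudogenes in RefSeq, so their reads may not be fully separable from those of near-identical copies.

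**Figure D2:**
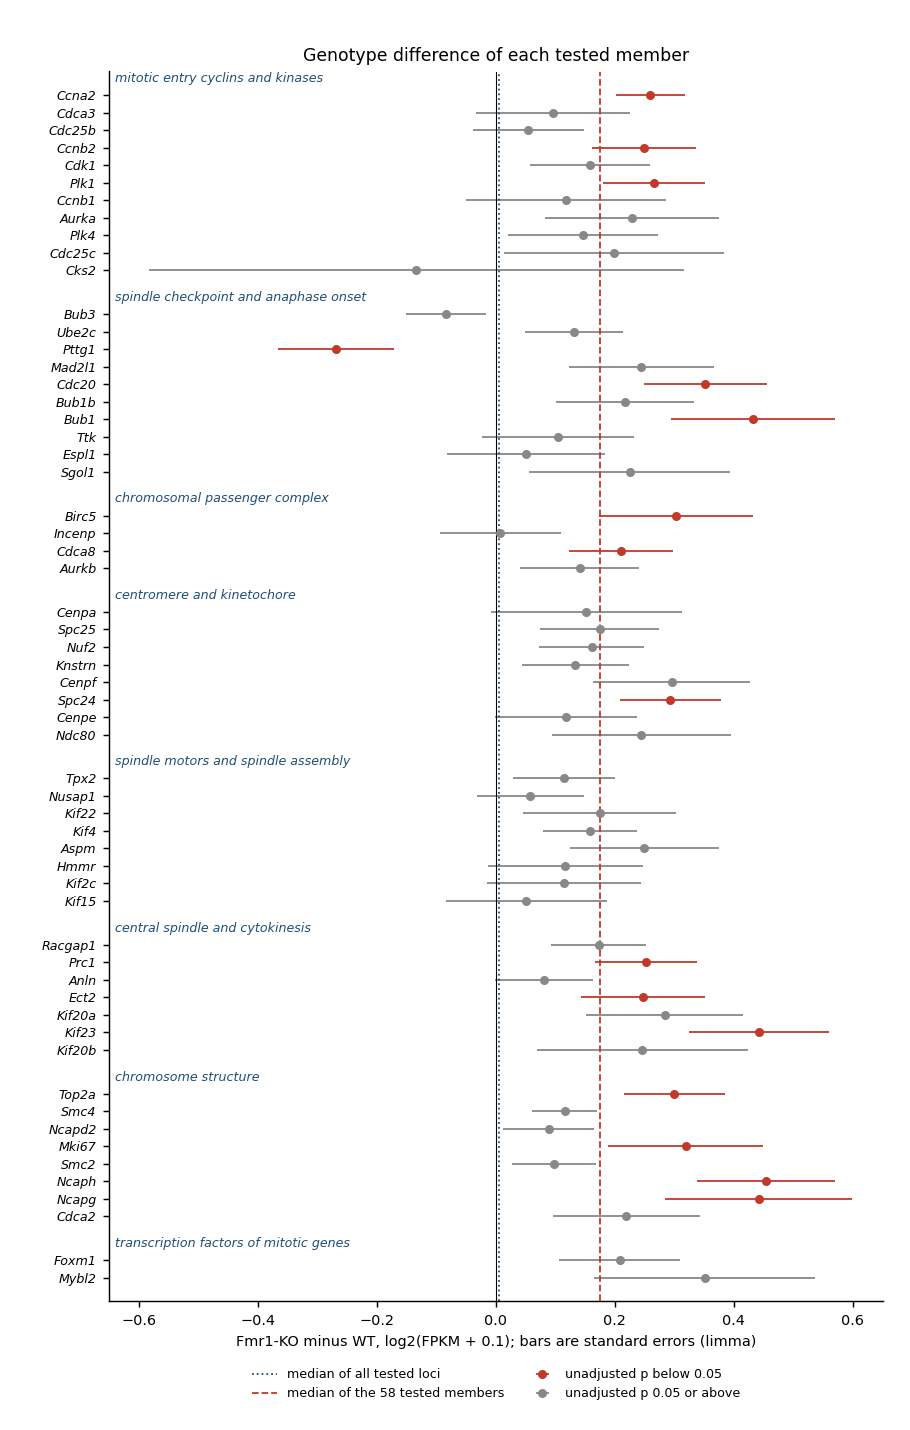
Log2 change, KO minus WT, of each tested member with its standard error as a bar, grouped by role, and lines for the medians of the members and of all tested loci. Points stand above 0 for 55 of 58 members, and changes run from -0.27 for Pttg1 to 0.45 for Ncaph.

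Among the cyclins and kinases of mitotic entry, 10 of 11 tested members had a log2 change above 0, the median was 0.16 and 3 were higher at an unadjusted p below 0.05. Ccna2 (cyclin A2, XLOC_007337, chr3:36552606-36573025), which partners CDK2 in S phase and CDK1 at entry, was the most abundant of them. It was listed at 9.41, 8.83 and 8.95 FPKM in WT and at 11.1, 10.7 and 10.7 FPKM in KO. The groups did not overlap, and the difference of 0.26 ± 0.06 (log2, SE, n = 3 and 3, limma) had an adjusted p = 0.108. Its locus shares its range with Exosc9, which was listed at 15.9 FPKM, and as strand was not given in the sources used here their reads may not be fully separable. Ccnb2 (cyclin B2, chr9:70407689-70421554) was listed at 4.19, 3.97 and 4.23 FPKM in WT and 4.99, 5.33 and 4.50 FPKM in KO. Each KO library was above each WT library, with a log2 difference of 0.25 ± 0.09 (adjusted p = 0.251). Plk1 (polo-like kinase 1, chr7:122159435-122169884), which drives centrosome maturation and mitotic entry, stood at 3.30, 3.18 and 3.61 FPKM in WT and at 4.06, 4.10 and 4.02 FPKM in KO. Again the groups were apart, by 0.27 ± 0.09 (adjusted p = 0.222).

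Cdk1, the kinase that these cyclins activate (chr10:69336635-69352912), stood at 3.99, 3.38 and 4.19 FPKM in WT and at 4.06, 4.36 and 4.48 FPKM in KO. Its groups overlapped, and the log2 difference of 0.16 had a 95% interval from -0.07 to 0.39 (adjusted p = 0.510). Its other cyclin partner Ccnb1 was at 3.33, 2.65 and 3.75 FPKM in WT and 3.81, 4.02 and 2.77 FPKM in KO, which overlapped widely (0.12 ± 0.17). The CDK1-activating phosphatases Cdc25b and Cdc25c differed by 0.05 and 0.20, Aurka, the kinase of spindle poles, by 0.23, Plk4, which starts centriole duplication, by 0.15, and Cdca3, which helps remove the CDK1 inhibitor Wee1, by 0.10. None of these had p below 0.05, and the range of Aurka, at 3.20 FPKM, is shared with Cstf1, at 9.25 FPKM. Cks2, a small CDK1 subunit, was the sole entry gene below 0, at -0.13, and the most variable member: its libraries ran from 0.958 to 3.35 FPKM in WT and from 0.909 to 2.30 FPKM in KO, with an interval from -1.16 to 0.89.

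For the spindle checkpoint and the onset of anaphase, 8 of 10 members lay above 0, with a median of 0.17. Bub1, a checkpoint kinase of the kinetochore (chr2:127800197-127831859), was listed at 1.90, 1.44 and 1.77 FPKM in WT and at 2.19, 2.34 and 2.44 FPKM in KO. All KO libraries were the higher ones, by 0.43 ± 0.14 (adjusted p = 0.217). Cdc20, which activates the APC/C and is held back by the checkpoint (chr4:118428084-118437343), stood at 6.75, 5.32 and 5.58 FPKM in WT and at 6.84, 7.65 and 8.07 FPKM in KO. The groups came close, with WT 1 just under KO 1, and the log2 difference was 0.35 ± 0.10 (adjusted p = 0.192). Its range overlaps that of Elovl1, listed at 5.57 FPKM.

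Pttg1 (securin, the inhibitor of separase, chr11:43420248-43426248) went the other way. It was among the most abundant members, at 19.3, 16.2 and 19.1 FPKM in WT and at 13.2, 15.8 and 16.4 FPKM in KO. The groups overlapped, since KO 3 lay above WT 2, and the log2 difference of -0.27 had an interval from -0.49 to -0.05 (adjusted p = 0.260). It kept p below 0.05 when WT 2, KO 2 or KO 3 was left out but not when WT 1, WT 3 or KO 1 was, and over the 6 fits the difference ran from -0.35 to -0.17. Bub3, a checkpoint protein that also works in interphase, had the highest mean of all members over the 6 libraries, 18.6 FPKM, although in KO Top2a and Ube2c were slightly above it. It was listed at 20.7, 18.8 and 17.9 FPKM in WT and at 18.9, 17.4 and 17.8 FPKM in KO, overlapping groups with a log2 difference of -0.08 (interval -0.24 to 0.07, adjusted p = 0.611). Ube2c, the ubiquitin-conjugating enzyme of the APC/C, was close behind in level, at 17.4 FPKM, and differed by 0.13. The checkpoint genes Mad2l1, Bub1b and Ttk differed by 0.24, 0.22 and 0.10, Sgol1, the protector of centromeric cohesion, by 0.22, and Espl1 (separase) by 0.05, all with p above 0.05. For Sgol1 the KO libraries, from 1.17 to 1.41 FPKM, were all above the WT libraries, from 0.995 to 1.12 FPKM.

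The chromosomal passenger complex corrects faulty attachments and later moves to the central spindle, and its 4 members had a median of 0.18. Birc5 (survivin, chr11:117849237-117855743) was the most abundant, at 7.22, 8.80 and 8.39 FPKM in WT and at 11.4, 10.8 and 8.15 FPKM in KO. KO 3 fell within the WT range, and the log2 difference was 0.30 ± 0.13 (adjusted p = 0.326). Cdca8 (borealin, chr4:124918465-124936917) was listed at 5.13, 5.34 and 5.56 FPKM in WT and 5.64, 6.17 and 6.85 FPKM in KO. These did not overlap and differed by 0.21 ± 0.09 (adjusted p = 0.311). The kinase Aurkb and its activator Incenp, the scaffold that joins it to survivin and borealin, differed by 0.14 and 0.01, so the subunits of the complex had unequal values, although the differences between them were not tested.

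At the centromere and kinetochore all 8 members lay above 0, with a median of 0.17, and Spc24 alone had p below 0.05. Spc24 and Spc25 form the inner end of the NDC80 complex, which grips microtubules, and Ndc80 and Nuf2 the outer end. Spc24 (chr9:21755442-21760448) was listed at 3.43, 3.37 and 3.32 FPKM in WT and at 3.92, 4.41 and 4.15 FPKM in KO. The WT libraries were nearly equal and all lower, and the log2 difference was 0.29 ± 0.08 (adjusted p = 0.185). Its partners Ndc80, Spc25 and Nuf2 differed by 0.24, 0.17 and 0.16, with overlapping libraries. Cenpa, the histone variant that marks centromeres, was the most abundant of the role, at 9.45, 5.87 and 8.03 FPKM in WT and 7.44, 8.94 and 9.22 FPKM in KO. The highest and the lowest of these 6 values were both WT, and the difference was 0.15 ± 0.16. Cenpf, a large protein of the outer kinetochore, differed by 0.30 (adjusted p = 0.347), the kinetochore motor Cenpe by 0.12 and Knstrn by 0.13.

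Among spindle motors and assembly factors all 8 tested members lay above 0, with the lowest median of any role, 0.12, and 0 had p below 0.05. Tpx2, which activates Aurka and nucleates microtubules, led in level, at 7.55, 6.95 and 8.24 FPKM in WT and 7.79, 7.91 and 8.94 FPKM in KO, which overlapped (0.11 ± 0.09). Kif4, a chromosome-borne motor encoded on the X chromosome, was the member with the tightest libraries, at 3.51, 3.37 and 3.52 FPKM in WT and 3.88, 3.86 and 3.89 FPKM in KO. They stood apart, but by a small amount, 0.16 (adjusted p = 0.400). The remaining motors Kif15, Kif22 and Kif2c differed by 0.05, 0.17 and 0.11, and the spindle proteins Aspm, Hmmr and Nusap1 by 0.25, 0.12 and 0.06. Nusap1, at 7.37 FPKM, shares its range with Oip5, at 1.66 FPKM.

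The genes of the central spindle and cytokinesis were higher by a median of 0.25, with all 7 above 0 and 3 at p below 0.05. Kif23 (chr9:61917277-61946813) and Racgap1 together form centralspindlin, which bundles the microtubules between the parting chromosomes. Kif23 was listed at 2.43, 2.12 and 2.09 FPKM in WT and at 2.81, 3.38 and 2.95 FPKM in KO. The groups stood clear of each other, by 0.44 ± 0.12 (adjusted p = 0.159). Racgap1, the most abundant of the role, was at 10.5, 9.59 and 10.5 FPKM in WT and 10.3, 12.1 and 12.1 FPKM in KO. KO 1 fell among the WT libraries, and the difference was 0.17 ± 0.08 (adjusted p = 0.365). Prc1, which crosslinks antiparallel microtubules (chr7:80294451-80324696), was listed at 9.23, 7.79 and 9.54 FPKM in WT and at 10.9, 9.95 and 10.8 FPKM in KO. Its groups did not overlap, with a difference of 0.25 ± 0.09 (adjusted p = 0.239), and its range is shared with Rccd1, at 4.08 FPKM. Without WT 2 the difference was 0.16, and unadjusted p was no longer below 0.05 without WT 2, KO 1 or KO 3. Ect2, the exchange factor that switches on RhoA for the contractile ring (chr3:27097222-27153909), was at 2.82, 3.12 and 3.50 FPKM in WT and 3.84, 3.52 and 3.87 FPKM in KO. WT 3 was only just under KO 2, and the log2 difference was 0.25 ± 0.10 (adjusted p = 0.319). The motors Kif20a and Kif20b differed by 0.28 and 0.25 and the ring scaffold Anln by 0.08. The listed range for Kif20a covers Brd8 and Cdc23, which were listed at 16.0 and 17.2 FPKM against 2.66 FPKM for Kif20a. Anln, at 4.75 FPKM, shares its range with 9530077C05Rik, at 2.29 FPKM.

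For genes of chromosome structure all 8 lay above 0, with a median of 0.26 and 4 at p below 0.05. Top2a, the topoisomerase that untangles sister chromatids (chr11:98992947-99024205), was listed at 13.9, 14.7 and 16.7 FPKM in WT and at 16.9, 19.5 and 19.3 FPKM in KO. WT 3 reached nearly to KO 1 without overlap, and the log2 difference was 0.30 ± 0.08 (adjusted p = 0.173). Mki67, whose protein Ki-67 coats mitotic chromosomes and is the usual marker of cycling cells (chr7:135689788-135716409), stood at 6.43, 8.05 and 8.42 FPKM in WT and at 7.94, 10.3 and 10.4 FPKM in KO. KO 1 lay within the WT range, and the difference was 0.32 ± 0.13 (adjusted p = 0.308). With a library left out it ran from 0.20, without WT 1, to 0.45, and unadjusted p was no longer below 0.05 without WT 1, KO 2 or KO 3. Cdca2, which brings a phosphatase to chromosomes at mitotic exit, differed by 0.22 (adjusted p = 0.454).

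The condensin I complex, which compacts chromosomes, had all 5 of its subunits among the members, at unequal levels. Smc4, Ncapd2 and Smc2 were at 15.2, 11.7 and 6.68 FPKM, while Ncaph and Ncapg were at 3.16 and 2.44 FPKM. Smc2 and Smc4 also serve condensin II. Ncaph (chr2:127103809-127133954), the subunit that closes the ring, was listed at 2.76, 2.27 and 2.95 FPKM in WT and at 3.69, 3.78 and 3.51 FPKM in KO. No libraries overlapped, and its log2 difference, 0.45 ± 0.12 (adjusted p = 0.145), was the largest of all tested members. Ncapg (chr5:45669872-45857779) stood at 2.03, 1.67 and 2.50 FPKM in WT and at 2.50, 3.06 and 2.88 FPKM in KO. WT 3 and KO 1 were all but equal, and the difference was 0.44 ± 0.16 (adjusted p = 0.256). The locus is long and shares its range with Lcorl, listed at 12.8 FPKM. The 3 more abundant subunits differed by less, Smc4 by 0.12 (adjusted p = 0.376), Smc2 by 0.10 and Ncapd2 by 0.09, and the differences between subunits were not tested.

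The 2 transcription factors of mitotic genes among the members had unadjusted p above 0.05. Foxm1, which activates genes of the G2 and M phases, was at 3.70, 3.20 and 4.06 FPKM in WT and at 4.34, 4.17 and 4.15 FPKM in KO. These did not overlap, and the log2 difference was 0.21 (adjusted p = 0.386), with the row shared with Tex52. Mybl2 (B-Myb), which joins MuvB in cycling cells, was at 0.793, 0.843 and 0.847 FPKM in WT and at 1.14, 1.01 and 1.10 FPKM in KO. Having passed the FPKM minimum through KO alone, it had to be higher there, and its groups were apart by 0.35 (adjusted p = 0.427), a value that the added 0.1 FPKM makes smaller for a gene at this level.

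**Figure D3:**
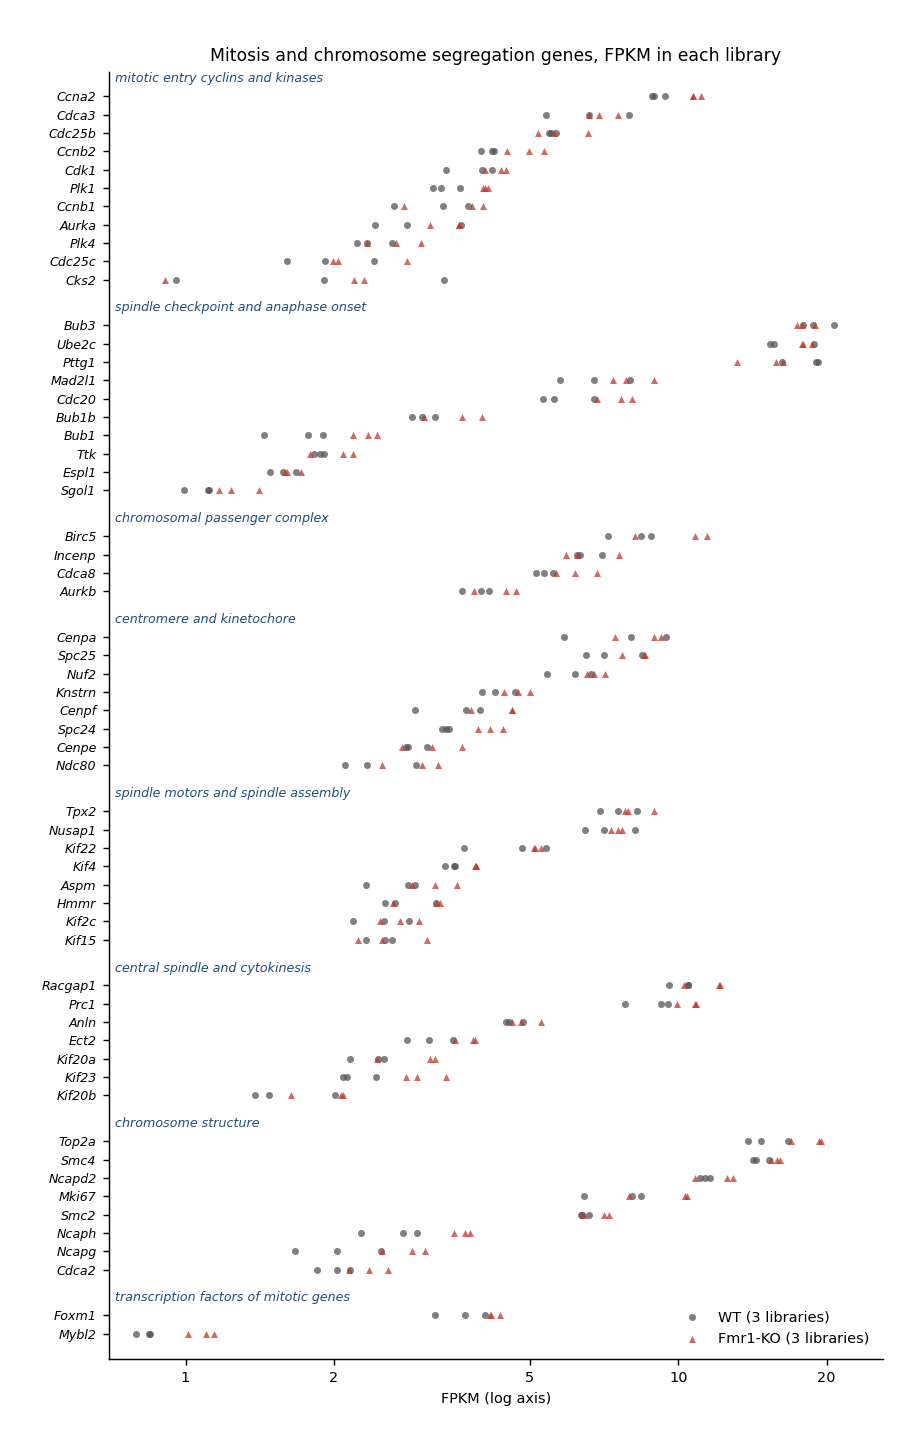
FPKM of the members in each of the 3 WT and 3 KO libraries, on a log axis, grouped by role, with a point for each library. The groups are fully apart for Ccna2, Spc24, Kif23 and Ncaph, and overlap for Mki67 and Pttg1.

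Relative to the WT mean of each gene, the median log2 level over the 58 members was -0.002 in WT 1, -0.06 in WT 2 and 0.08 in WT 3, and 0.11 in KO 1, 0.22 in KO 2 and 0.23 in KO 3. All 3 KO libraries were thus above all 3 WT libraries, with only a small step from WT 3 to KO 1, and the medians over all tested loci stayed within 0.01 of 0 in every library. WT 2 was the lowest library for 31 members and the highest for 0, while KO 2 and KO 3 were the highest for 20 and 22. Summed over the members, FPKM was 319, 295 and 332 in WT and 335, 358 and 358 in KO. WT 2 therefore bears on the size of the difference: without it the median change was 0.13 and 10 members (17.2%) were higher at p below 0.05, against 6.35% of all loci in that fit, and without WT 3 these became 0.23 and 21 members (36.2%), against 6.34% of all loci. Without KO 2, or without KO 3, the count was also 10, against 4.60% and 4.77% of all loci. Ccna2, Plk1, Bub1, Cdc20, Spc24, Kif23, Top2a and Ncaph kept p below 0.05 whichever library was left out, which is 8 of the 16 members at that threshold. The rest lost it without certain libraries: Ccnb2 without WT 2, KO 1 or KO 2, Ncapg without WT 2, KO 2 or KO 3, Birc5 without WT 1, WT 3, KO 1 or KO 2, Cdca8 without WT 1, WT 2, KO 2 or KO 3, and Ect2 without WT 1, WT 2, KO 1 or KO 3. The size of the change was at its lowest at 0.14 for Cdca8 without KO 3, against 0.21 with all libraries. How many of all called loci keep p below 0.05 in every such fit was not counted. These fits also share most of their libraries with the fit that picked the 16. The 8 are therefore not shown to be steadier than other called loci.

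**Figure D4:**
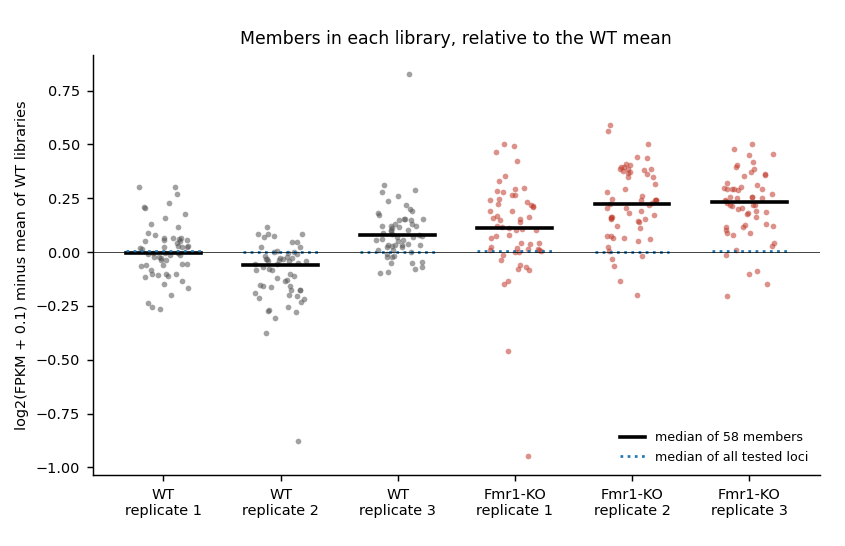
Log2 level of each of the 58 tested members relative to its WT mean, by library, with a point for each member, a solid line for their median and a dotted line for the median over all tested loci. KO 2 and KO 3 stand highest, at 0.22 and 0.23, and WT 2 lowest, at -0.06.

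Other genes of the same processes were counted from lists of related genes outside the 60, to be read against the shares over all tested loci of 51.7% above 0, and 6.99% higher and 7.77% lower where unadjusted p was below 0.05. In a list of 57 further mitosis genes, 53 were tested, and 47 lay above 0, with 10 higher and 0 lower where unadjusted p was below 0.05, and a median of 0.18. The most positive was Casc5 (Knl1, the kinetochore scaffold that recruits Bub1), at 0.85, 1.07 and 0.928 FPKM in WT and 1.32, 1.44 and 1.35 FPKM in KO (log2 0.49, adjusted p = 0.251), and the most negative was Cenpl at -0.11. Casc5 is 1 of 4 genes of this list that passed the FPKM minimum through KO alone, the others being Cenpu, Kif14 and Depdc1b, and such genes had to be higher in KO. Ska2 and Kifc1 of this list were listed at 0 in all libraries, and like Kif11 and Nek2 both have a scaffold copy. Of 13 cohesin genes, which hold sister chromatids together, 13 lay above 0 and 2 were higher at that threshold, with a median of 0.08. The range there ran from 0.01 for Smc1a to 0.53 for Cdca5 (sororin, which protects cohesion until mitosis).

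The lists of DNA replication genes, APC/C genes and DREAM, RB and E2F regulators had smaller medians than the members, as the cohesin list did. The APC/C itself acts in mitosis, so small medians were not confined to genes acting before it. Of 44 tested DNA replication genes, 30 lay above 0, 9 were higher and 1 was lower at that threshold, with a median of 0.07, from 0.53 for Chaf1b, a subunit of the chromatin assembly factor, to -0.26 for Ccne1, the G1/S cyclin. In the APC/C list 11 of 16 lay above 0, with a median of 0.03, and the extremes were Fbxo5, the APC/C inhibitor Emi1, at 0.32 and Anapc10 at -0.11. The DREAM, RB and E2F regulators had 14 of 18 above 0 and a median of 0.06, from 0.22 for Rbl1 to -0.19 for Lin37. In the last 2 lists 1 gene each was higher at p below 0.05, Fbxo5 and E2f4, the latter named after its value was seen, which is close to the share over all loci. No gene of these lists passed an adjusted p of 0.05, and whether the lists differ from the members was not tested.

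Cells that can divide in such cultures include oligodendrocyte precursors, astrocytes, microglia, endothelial and mural cells and fibroblasts, so their markers are set beside the members. Of 8 oligodendrocyte precursor markers 7 were tested, 5 lay above 0 and 2 were higher at p below 0.05. Pdgfra, the growth factor receptor of these cells, was at 57.8, 63.5 and 70.0 FPKM in WT and 71.6, 80.5 and 81.8 FPKM in KO (log2 0.29, adjusted p = 0.162), and Olig2, named after its values were seen, differed by 0.25 (adjusted p = 0.133). Both had KO libraries above all WT libraries, while Gpr17, of later precursors, was at -0.20. C1ql1 was at -0.10, and Neu4, under the FPKM minimum, had every KO library below every WT library, at a KO to WT ratio of 0.72. C1ql1 and Neu4 were also named after their values were seen. The summed markers were 406, 383 and 445 FPKM in WT and 424, 455 and 472 FPKM in KO, which overlapped, with WT 2 lowest and KO 3 highest as for the members' medians. The part of these cells in the members' difference was not tested.

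Astrocyte markers were divided: 5 of 10 lay above 0, 0 were higher and 2 were lower at p below 0.05, with Gfap at 0.14 and S100b at -0.36, and the summed range was 1769 to 2083 FPKM in WT and 1831 to 2030 FPKM in KO. Microglia markers were at low levels. Their sum was 4.89 to 6.79 FPKM in WT and 1.17 to 2.53 FPKM in KO, Aif1, which has copies on scaffolds so that its zeros cannot be read, and Tmem119 were listed at 0 in all libraries, and the 3 that were tested, C1qa, C1qb and C1qc, were at -2.03, -2.33 and -1.83. These passed the minimum through WT alone and so had to be lower in KO. Under the minimum, Csf1r and Trem2 overlapped between genotypes. Cx3cr1, P2ry12 and Itgam, also under it and named after their values were seen, had every KO library below every WT library. Their KO to WT ratios were 0.26, 0.26 and 0.16, at means of only 0.21, 0.21 and 0.028 FPKM over all libraries. Endothelial markers summed to 3.59 to 3.75 FPKM in WT and 2.26 to 2.97 FPKM in KO with Cldn5 listed at 0, again with a scaffold copy, and the 1 tested, Kdr, was at -0.003. Fibroblast and mural markers summed to 48.4 to 53.2 FPKM in WT and 39.5 to 47.5 FPKM in KO, from 0.06 for Rgs5 to -0.27 for Dcn. Dcn, at a mean of 38.4 FPKM, made up most of this sum, and without it the sums were 9.42, 8.79 and 9.49 FPKM in WT and 8.50, 9.35 and 9.42 FPKM in KO, which overlapped. The collagen markers, all under the FPKM minimum and named after their values were seen, had KO to WT ratios of 1.43 for Col1a1, 1.60 for Col1a2 and 1.23 for Col3a1. The part of any of these cells in the members' difference was not tested.

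Neural progenitor markers summed to 215 to 233 FPKM in WT and 221 to 230 FPKM in KO. Of 8 tested, 5 lay above 0, with Nes, an intermediate filament of progenitors and some glia, at 0.37 (7.62, 9.21 and 9.74 FPKM in WT, 10.7, 10.8 and 12.9 FPKM in KO, adjusted p = 0.185), Dcx, of young neurons and named after its values were seen, at 0.26, and Hes5 at -0.20. Excitatory neuron markers were divided, with 4 of 8 above 0 and Prox1 lowest at -0.29, and summed to 850 to 891 FPKM in WT and 882 to 955 FPKM in KO. For inhibitory neuron markers 4 of 9 lay above 0, from 0.57 for Dlx2 to -0.40 for Vip, with sums of 352 to 370 FPKM in WT and 329 to 378 FPKM in KO. At an unadjusted p below 0.05, 3 of these 9 were higher and 2 lower, and their lowest limma adjusted p was 0.077. The progenitor list had 2 higher and 1 lower at that threshold, and the excitatory list 1 higher and 1 lower. Over all tested loci the shares were 6.99% higher and 7.77% lower. The part of any of these cells was not tested.

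**Figure D5:**
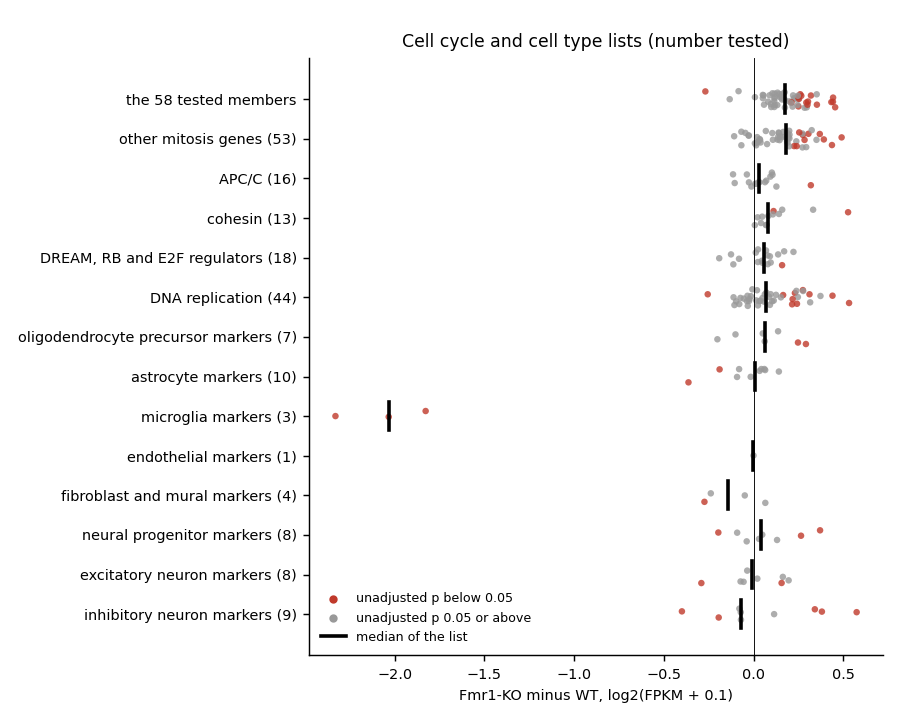
Log2 change, KO minus WT, of every tested gene in the member list, the lists of related genes and the cell type marker lists, with the median of each list. The members and the other mitosis genes have medians of 0.17 and 0.18, and the 3 microglia markers shown, at a median of -2.03, passed the FPKM minimum through WT alone.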

How the data were processed

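Total RNA of 6 libraries, 3 WT and 3 Fmr1-KO as labelled, was sequenced by the authors, who clipped and trimmed the reads, aligned them to GRCm38 with TopHat2 and assembled and compared them with Cufflinks and Cuffdiff. Versions, annotation, strandedness and read depth were not given. The deposited table of 48100 rows holds FPKM per library, used here, and the authors' group means, fold changes, p and q values, which were not used. Repeated rows of a locus were joined to give 47086 loci, of which 20105 were at 0 throughout.

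The members and all gene lists were chosen with earlier results of these data known. A symbol was matched directly or through RefSeq synonyms, to its locus with the highest mean FPKM. Loci with a mean of at least 1 FPKM in either genotype (13195) were tested two-sided with limma 3.58.1 (R 4.3.3, lmFit, eBayes with a trend) on log2(FPKM + 0.1) with genotype alone, and p was adjusted by the Benjamini-Hochberg method over all of them. The script was tested on simulated data. An exact permutation of 3 against 3 libraries cannot give p below 0.1, so none was used. Library values are given for members with p below 0.05, the most abundant of each role, Mki67, Top2a and Cdk1, and for further members chosen after their values were seen. Of the other lists, the genes with the largest change in each direction are named. The largest positive value among the excitatory neuron markers and 1 promoter stretch are not reported here. Alternatives were 2 other pseudocounts, 3 other minimums, centring, no trend, a replicate block and leaving out each library. Coordinates of loci are as deposited (GRCm38), written from 1.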

Additional observations from a re-analysis of the deposited data

How the results depend on the processing

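Under the 14 alternatives 0 members passed an adjusted p of 0.05. The median change of the members stayed above 0, and with a library left out it ran from 0.13 (without WT 2) to 0.23 (without WT 3). With a library left out, 10 to 21 members were higher and 0 to 1 lower at an unadjusted p below 0.05, and 14 to 20 loci of the whole table passed the adjusted threshold, where fewer samples were fitted. That count of loci was 35 with all libraries, 15 with no FPKM minimum, where more loci were tested, 54 with a minimum of 5 FPKM and 21 without the trend. The minimum of 5 FPKM left 24 members, 6 of them higher at an unadjusted p below 0.05. The share of all loci at that threshold was not counted for this fit, so the 6 cannot be set against it. Whether the replicate numbers pair the samples was not given, and the values do not settle it. Correlations of same-numbered deviations were 0.243, 0.058 and 0.080. They were the highest for WT 1 and WT 3, while WT 2 correlated best with KO 3, at 0.066. A replicate block in limma gave 65 loci past the adjusted threshold, and a lowest adjusted p of 0.0659 among members. With the block 19 members were higher at an unadjusted p below 0.05, but the share of all loci was not counted there either. Of the values of single members 766 kept their direction and side of the adjusted threshold, and 11 turned sign, all on leaving out a library, of members whose change was not called. Without WT 2 the change turned to -0.017 for Ccnb1, -0.045 for Cdca3, -0.036 for Cenpa and -0.019 for Nusap1. Incenp turned to -0.02 without WT 1, -0.01 without WT 2 and -0.10 without KO 3, Cks2 to 0.28 without WT 3 and 0.27 without KO 1, Cdc25b to -0.039 without KO 2 and Kif15 to -0.073 without KO 3. The 6 fits with a library left out gave Ccnb1 from -0.017 to 0.28, Cdca3 from -0.045 to 0.23, Cenpa from -0.036 to 0.30, Nusap1 from -0.019 to 0.15, Incenp from -0.10 to 0.078, Cks2 from -0.57 to 0.28, Cdc25b from -0.039 to 0.13 and Kif15 from -0.073 to 0.15. The cause of these shifts was not tested. The read depth is unknown, so the counting error of the low genes cannot be set apart from the spread between libraries.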
